A study of Mus musculus with 6 samples.

Results

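The circadian clock genes *Clock*, *Per1*, *Per2*, *Per3*, *Cry1*, *Cry2*, *Nr1d1*, *Nr1d2*, *Dbp* and *Tef* were taken by name from the gene counts of hearts of Pontin cTG mice and their WT littermates. They are 10 of the 56748 genes in the table, and all 10 passed the filter on low counts. Heart RNA was sequenced from 3 mice per group, with 1 library for each mouse. Pontin cTG mice carried human Pontin cDNA with a flag tag, driven in cardiomyocytes by the promoter αMHC, which their WT littermates lacked. All mice were male and on a C57Bl/6 background. WT and Pontin cTG mice alike were 10 weeks old when treatment with angiotensin II (Ang-II) began. Ang-II was given at 1.5 mg per kg of body weight each day from a mini-osmotic pump over 14 days. No group was free of Ang-II. The clock time at which the hearts were collected was not given in the sources used here.

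The mammalian clock is a feedback loop that runs in nearly every cell, cardiomyocytes included. CLOCK and its partner BMAL1, encoded by *Arntl*, bind E-box sequences and activate the *Per* and *Cry* genes, whose proteins inhibit them, and also *Nr1d1*, *Nr1d2*, *Dbp* and *Tef*. REV-ERBα and REV-ERBβ, the products of *Nr1d1* and *Nr1d2*, repress *Arntl* and other genes through ROR elements, so that in mouse hearts kept under a light-dark cycle *Dbp* and *Nr1d1* peak in the light phase while *Arntl* and *Npas2* peak near light onset. A heart collected at another time of day therefore differs in many clock transcripts at once and in opposite directions.

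The letters of this loop were looked for in the 250 bases before each annotated start, in promoter sequences from RefSeq on the GRCm38.p6 build. All 10 genes matched, with 13 promoters between them. The E-box (CACGTG, the same on both strands) was found in 4 of the 13 promoters, those of *Per1*, *Cry1* and both starts of *Tef*, and in 6.02% of all 32851 promoters in the table. The related E-prime box (CACGTT or, on the other strand, AACGTG) was found in 3, those of *Cry1*, *Cry2* and *Nr1d1*, and in 3.85% of all promoters; in *Cry1*, which held both kinds, they did not overlap. The D-box (TTATGTAA or TTACGTAA, either strand), to which DBP and TEF bind, was found in *Per3* alone, and in 0.931% of all promoters. The core of the ROR element (TAGGTCA, either strand) and the cyclic AMP element (TGACGTCA, the same on both strands) had 0 matches in the 13 promoters, against 2.23% and 1.55% of all promoters, which says only that these letters are not in these windows. 5 stretches are shown because they hold the letters through which the loop is known to act; the matched motif is in capitals and each is written 5′ to 3′ on the strand of its gene.
*Per1*, chr11:69098758-69098813, plus strand, E-box: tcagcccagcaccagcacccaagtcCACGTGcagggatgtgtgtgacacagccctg
*Cry1*, chr10:85185084-85185139, minus strand, E-box: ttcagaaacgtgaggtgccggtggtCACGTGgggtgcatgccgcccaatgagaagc
*Tef*, chr15:81811251-81811306, plus strand, E-box: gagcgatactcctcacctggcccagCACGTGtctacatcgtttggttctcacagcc
*Nr1d1*, chr11:98775378-98775430, minus strand, E-prime box: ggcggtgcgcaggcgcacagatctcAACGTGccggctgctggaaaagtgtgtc
*Per3*, chr4:151044791-151044895, minus strand, D-boxes: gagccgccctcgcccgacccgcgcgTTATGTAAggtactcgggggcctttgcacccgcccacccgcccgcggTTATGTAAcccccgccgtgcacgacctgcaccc
The 2 D-boxes of *Per3* began 47 bases apart and lay 197 and 150 bases before the start. The promoter of *Arntl* held a ROR core 30 bases after an annotated start, at chr7:113207531-113207557 on the plus strand, shown because REV-ERB proteins and their activating counterparts are known to control this gene:
*Arntl*, ROR core: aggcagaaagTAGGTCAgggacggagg

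Before the clock genes, the libraries and labels were checked. The WT libraries summed to 13194038, 12436822 and 12772244 counts, and those of Pontin cTG hearts, here as throughout in the order of their replicate numbers, to 14584102, 15279201 and 16888124. Normalised counts of *Ruvbl1*, the mouse gene of Pontin on chromosome 6 (GRCm39, chr6:88442391-88474554), were 216, 221 and 217 in WT and 250, 250 and 240 in Pontin cTG hearts, a log2 fold change of 0.18 (SE 0.12). The groups did not overlap (exact permutation p = 0.1, two-sided, the smallest that 3 against 3 libraries allow). The human cDNA had no row of its own, and whether some of its reads were counted under *Ruvbl1* was not tested.

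1 library stood apart. The first principal component, which held 48.6% of the variance, placed Pontin cTG replicate 2 at 50.9, WT replicate 2 at 16.2 and the other 4 libraries between −23.1 and −12.9. Across genes, the deviation of Pontin cTG replicate 2 from the mean of the libraries went with gene length at a Spearman rho of −0.20, so that longer genes had lower values there; rho was −0.16 in Pontin cTG replicate 3 and between 0.084 and 0.18 in the other libraries. *Dbp* and *Per3* went with the first component at r = 0.76 and 0.79 over the 6 libraries and *Clock* at r = −0.95. Values without Pontin cTG replicate 2 are therefore given beside the results that it moved most, and the part of its other differences in the clock values was not tested.

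The tissue was heart muscle. All 5 cardiomyocyte markers were abundant, led by *Myh6* with between 192476 and 338851 normalised counts. Of the atrial markers, *Myl7* had 11 counts and *Sln* 3 counts over all libraries, and both were at 0 in Pontin cTG replicate 2. *Myl4* had 43.7 normalised counts in Pontin cTG replicate 2 and between 8.81 and 28.3 in the others. *Nppa*, which encodes atrial natriuretic peptide, had 7716 normalised counts in Pontin cTG replicate 2 and between 360 and 1842 in the others. The study used this peptide as a marker of hypertrophy, so *Nppa* is not a marker of atrial tissue alone. Neuronal and lung epithelial markers were at 0. The 3 macrophage markers summed to 1117, 1790 and 1159 normalised counts in WT and 1078, 1087 and 830 in Pontin cTG hearts, with none at an unadjusted p under 0.05, and their sum was highest in WT replicate 2. In WT replicate 2 and Pontin cTG replicate 2, the hearts with the most *Dbp*, the fibroblast markers summed to 11582 and 10963 normalised counts, against 7792 to 9160 in the others, and the smooth muscle markers to 874 and 1177, against 468 to 822. *Myh11* was the most abundant smooth muscle marker. *Cnn1*, another, had 55.1, 31.4 and 86.1 normalised counts in WT and 59.6, 69.4 and 28.6 in Pontin cTG hearts. The endothelial markers summed to 11834 in Pontin cTG replicate 2 and to between 8304 and 9979 elsewhere; the part of these cells in the clock values was not tested. In bulk tissue, fewer cells of a type and less RNA per cell cannot be told apart.

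The 10 clock genes covered a wide range of levels. In CPM per kilobase of gene length, *Nr1d1* was the most abundant at 28.8 ± 4.7 (SD, n = 6), followed by *Nr1d2* at 18.1 ± 2.9 and *Tef* at 12.9 ± 0.76. *Dbp* stood at 9.23 ± 4.3, *Per1* at 5.27 ± 1.6, *Clock* at 4.80 ± 0.86, *Cry2* at 3.48 ± 0.54 and *Cry1* at 2.66 ± 0.63. *Per3* at 1.42 ± 0.56 and *Per2* at 1.37 ± 0.50 were the least abundant. The ranges of mean ± SD were separate between *Nr1d1* and *Nr1d2*, between *Nr1d2* and *Tef* and between *Cry1* and *Per3*; every other pair of neighbours in this order overlapped.

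None of the 10 clock genes differed between Pontin cTG and WT hearts at an adjusted p under 0.05 in edgeR, where 0% of the 13888 genes tested passed, and all 10 had an adjusted p of 0.999. 0 of the 10 had an unadjusted p under 0.05 in either direction, against 1.02% of all genes higher and 1.03% lower in Pontin cTG hearts; DESeq2 also gave 0 of 10 at either threshold. Pontin cTG hearts had higher values of 2 and lower values of 8, and the median log2 fold change was −0.11 against 0.0013 over all genes tested. 2 of the 10 had groups that did not overlap, *Cry2* and *Tef*, both lower in Pontin cTG hearts, where 3.63% of all genes were separated in that direction and 4.7% in the other. In the plot of normalised counts by library, the SD of the Pontin cTG hearts was larger than the difference between the group means for 6 of the 10 genes. The SD of the WT hearts was also larger than that difference for *Per1*, *Cry1*, *Nr1d1*, *Nr1d2* and *Dbp*. The share of all genes with such an SD was not counted.

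**Figure D1:**
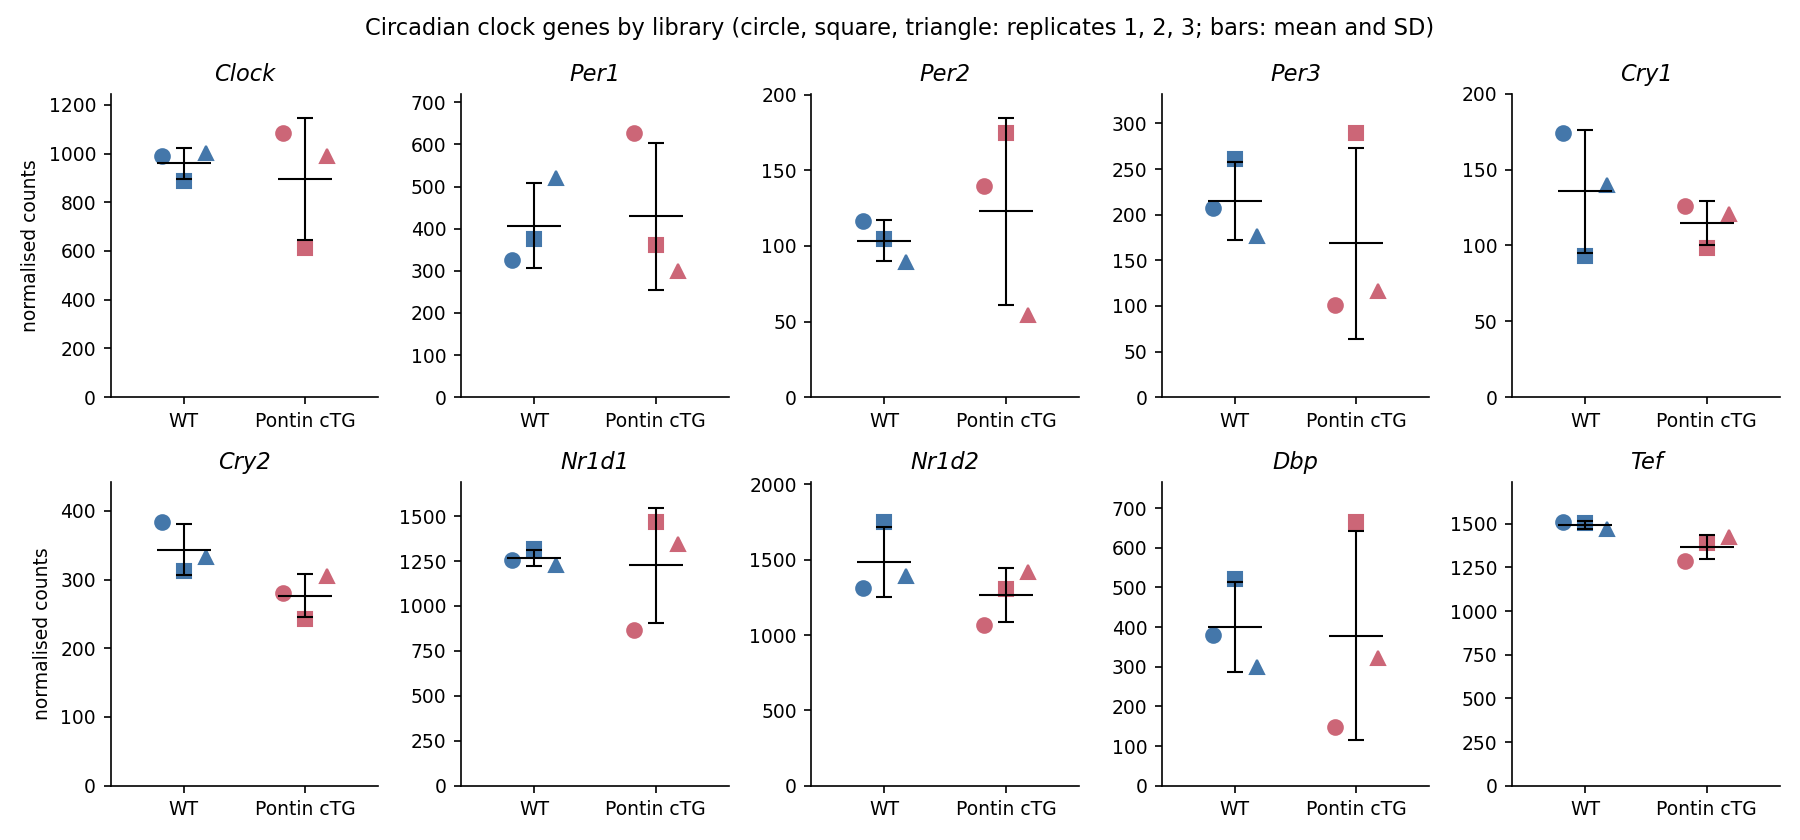
Normalised counts of the 10 clock genes in each library, WT in blue and Pontin cTG in red; circles, squares and triangles are replicates 1, 2 and 3, and black lines give the mean and SD of 3 libraries. *Dbp* ran from 147 to 666 among the Pontin cTG hearts, while the WT and Pontin cTG values of *Cry2* and *Tef* did not overlap.

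*Clock* (GRCm39, chr5:76357715-76452639, minus strand) encodes the activator of the loop; gene positions here and below are the table's own. Its normalised counts were 989, 886 and 1004 in WT and 1084, 611 and 991 in Pontin cTG hearts. The WT values lay within those of the Pontin cTG hearts, and the lowest value was that of Pontin cTG replicate 2. The log2 fold change was −0.10 (SE 0.20, exact permutation p = 0.9), and it was 0.11 (SE 0.11) without that library.

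The *Per* genes encode inhibitors of CLOCK and BMAL1, and *Per1* and *Per2* are also induced by hormones and other acute signals. *Per1* (chr11:68986043-69000786, plus strand) had 326, 375 and 521 normalised counts in WT and 627, 361 and 299 in Pontin cTG hearts, so that Pontin cTG hearts held both the highest and the lowest value. Its log2 fold change was 0.07 (SE 0.28, exact permutation p = 1). *Per2* (chr1:91343704-91387046, minus strand) had 117, 104 and 89.4 in WT and 140, 175 and 54.6 in Pontin cTG hearts. Again the WT values fell inside the range of the Pontin cTG values, which spanned 3.20-fold, and the log2 fold change was 0.25 (SE 0.37, exact permutation p = 0.9), or −0.10 (SE 0.35) without Pontin cTG replicate 2.

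*Per3* (chr4:151088109-151129122, minus strand), the member of the family with the D-boxes shown above, had 207, 261 and 177 normalised counts in WT and 101, 289 and 116 in Pontin cTG hearts. Pontin cTG replicates 1 and 3 lay below all WT hearts and replicate 2 above them. With all libraries the log2 fold change was −0.35 (SE 0.37, exact permutation p = 0.4). Without Pontin cTG replicate 2 it was −0.99 (SE 0.19), and edgeR gave it an unadjusted p of 0.000333 (adjusted p = 0.889); 4.91% of the 13978 genes tested in that fit had an unadjusted p under 0.05. Without Pontin cTG replicate 1 it was −0.073 and without replicate 3 −0.14, so that its size depended on which Pontin cTG heart was left out.

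*Cry1* and *Cry2* encode cryptochromes, the partners of the PER proteins. *Cry1* (chr10:84967564-85020928, minus strand) had 174, 93.1 and 140 normalised counts in WT and 126, 98.5 and 120 in Pontin cTG hearts. Here the wider spread was in WT, and the log2 fold change was −0.24 (SE 0.24, exact permutation p = 0.5). *Cry2* (chr2:92233991-92264388, minus strand) had 384, 313 and 333 in WT and 280, 243 and 306 in Pontin cTG hearts. Every Pontin cTG heart was below every WT heart, but the gap between the nearest values, 306 and 313, was small. The log2 fold change was −0.31 (SE 0.14), with an unadjusted p of 0.0583 in edgeR and an exact permutation p of 0.1, the smallest possible.

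*Nr1d1* (chr11:98658758-98666159, minus strand) had 1257, 1318 and 1226 normalised counts in WT and 865, 1469 and 1344 in Pontin cTG hearts. The 3 WT hearts were close to each other, whereas Pontin cTG replicate 1 was the lowest and Pontin cTG replicate 2 the highest of all libraries. The log2 fold change was −0.05 (SE 0.19, exact permutation p = 1). *Nr1d2* (chr14:4230569-4265642, plus strand), its paralogue, had 1314, 1753 and 1391 in WT and 1069, 1307 and 1419 in Pontin cTG hearts, with a log2 fold change of −0.23 (SE 0.17, exact permutation p = 0.4). Its highest value was in WT replicate 2 and its lowest in Pontin cTG replicate 1, and the groups overlapped.

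*Dbp* and *Tef* encode transcription factors of the PAR bZIP family, which act through D-boxes and carry the rhythm to output genes. *Dbp* (chr7:45354512-45359627, plus strand) had 380, 522 and 298 normalised counts in WT and 147, 666 and 321 in Pontin cTG hearts. The Pontin cTG hearts differed among themselves by 4.52-fold and enclosed the whole WT range. The log2 fold change was −0.08 (SE 0.46, 95% interval by normal approximation −0.99 to 0.83, exact permutation p = 0.8), and −0.76 (SE 0.40) without Pontin cTG replicate 2. Its direction depended on the hearts included: it was 0.32 with Pontin cTG replicate 1 left out, 0.028 with Pontin cTG replicate 3 left out and 0.16 with WT replicate 2 left out. *Tef* (chr15:81686622-81711064, plus strand) had 1512, 1503 and 1468 in WT and 1288, 1387 and 1424 in Pontin cTG hearts. It varied the least of the 10 genes, and its separated groups gave a log2 fold change of −0.13 (SE 0.12, unadjusted p = 0.314 in edgeR, exact permutation p = 0.1).

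**Figure D2:**
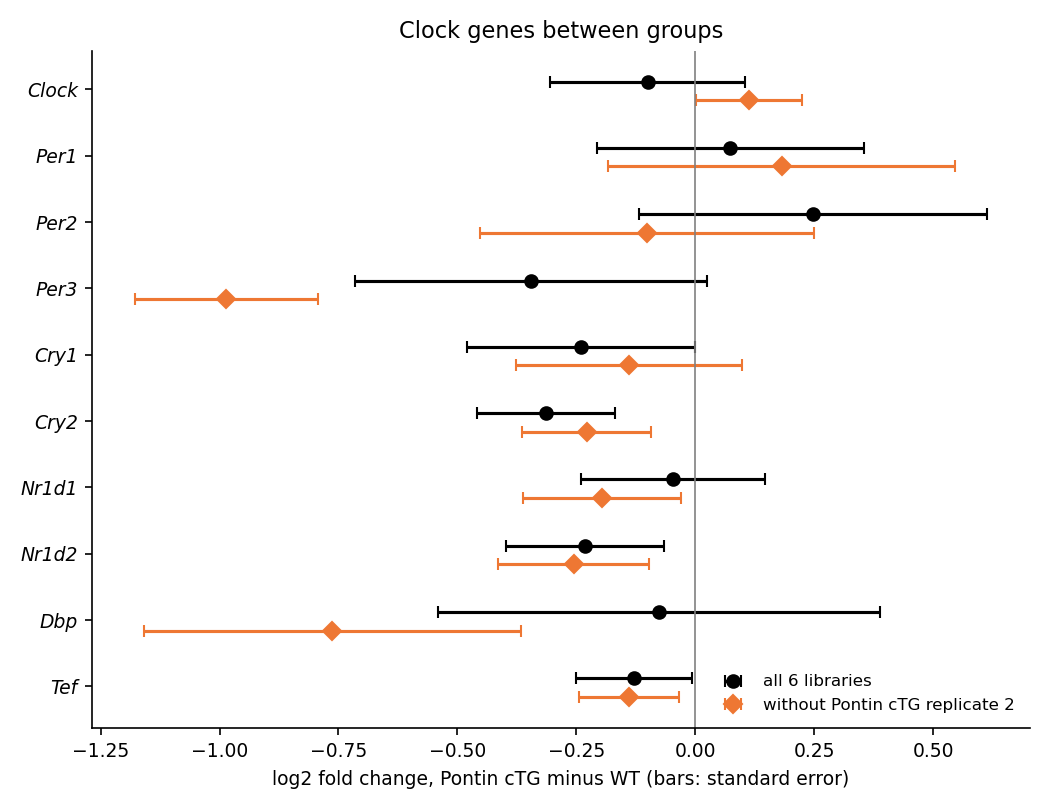
Log2 fold change between Pontin cTG and WT hearts with its standard error for the 10 clock genes, from edgeR, with all 6 libraries (black circles) and without Pontin cTG replicate 2 (orange diamonds). *Per3* moved from −0.35 to −0.99 and *Dbp* from −0.08 to −0.76, while *Tef* stayed at −0.13 and −0.14.

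Overlapping genes may limit some of these counts. The strand setting of the counting, which matters for genes on opposite strands, was not given. The overlaps are of annotated gene spans, and whether the counted bases overlap was not tested. *Per3* lies within the annotated span of *Camta1* on the same strand, and *Camta1* was lowest in Pontin cTG replicate 2, at 1410 normalised counts against 1727 to 2147 elsewhere, where *Per3* was highest. *Nr1d1* shares 1075 bases with *Thra* on the opposite strand. *Thra* was lowest in Pontin cTG replicate 2, at 791 normalised counts, where *Nr1d1* was highest. *Dbp* shares 737 bases with *Sphk2*, also on the opposite strand. *Sphk2* stayed between 190 and 264 normalised counts and was also lowest in Pontin cTG replicate 2, so its own row did not follow that of *Dbp*.

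The clock genes differed widely in their spread within the groups. The pooled SD of log2 CPM within groups was 0.82 for *Dbp*, and 2.78% of all genes tested, or 0.144% of those of similar mean level, had a larger one. *Per2* (0.63) and *Per3* (0.61) followed, with 6.74% and 7.45% of all genes above them, and then *Per1* (0.46) with 15.9%. *Cry1*, *Clock* and *Nr1d1* lay between 28.8% and 38.0%, *Nr1d2* at 56.7% and *Cry2* at 74.8%, and for *Tef* (SD 0.056) 98.7% of genes varied more.

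The other genes of the loop were then read library by library. *Arntl*, the partner of *Clock*, had 186, 137 and 203 normalised counts in WT and 276, 177 and 250 in Pontin cTG hearts, a log2 fold change of 0.42 (SE 0.21, unadjusted p = 0.0805 in edgeR). Without Pontin cTG replicate 2 it was 0.58 (SE 0.17, unadjusted p = 0.00602 and adjusted p = 0.889 in edgeR). It was 0.27 (SE 0.22) without WT replicate 2 and 0.29 (SE 0.23) without Pontin cTG replicate 1. *Npas2*, which can stand in for *Clock*, had 45.2, 47.1 and 68.2 in WT and 72.2, 47.9 and 53.7 in Pontin cTG hearts. *Arntl* was thus lowest in WT replicate 2 and Pontin cTG replicate 2, the pair of hearts with the highest *Dbp*, and highest in Pontin cTG replicate 1, the heart with the lowest. The ratio of *Dbp* to *Arntl* in normalised counts was 2.04, 3.81 and 1.47 in WT and 0.534, 3.76 and 1.28 in Pontin cTG hearts.

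*Ciart*, a further repressor of CLOCK and BMAL1, followed *Dbp*, with 22.0, 48.2 and 29.1 normalised counts in WT and 13.7, 65.1 and 15.6 in Pontin cTG hearts. Its log2 fold change was −0.06 (SE 0.60) with all libraries. It was −1.17 (SE 0.42) once Pontin cTG replicate 2 was dropped (unadjusted p = 0.0191, adjusted p = 0.889 in edgeR). *Ciart* was higher in Pontin cTG hearts when WT replicate 2 (0.31), Pontin cTG replicate 1 (0.30) or Pontin cTG replicate 3 (0.26) was dropped. *Ciart* stayed lower when WT replicate 1 (−0.28) or WT replicate 3 (−0.14) was dropped. Its 197 counts over all libraries were few, and C920021L13Rik, which overlaps it on the opposite strand over 3749 bases, varied alongside it between 15.6 and 62.5. *Nfil3*, which encodes a repressor that competes with DBP for D-boxes, ran the other way, at 205, 133 and 172 in WT and 222, 107 and 159 in Pontin cTG hearts. *Hlf*, the third PAR bZIP gene, did not follow *Dbp*: it had 392, 264 and 350 in WT and 297, 159 and 375 in Pontin cTG hearts, and was lowest in Pontin cTG replicate 2.

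**Figure D3:**
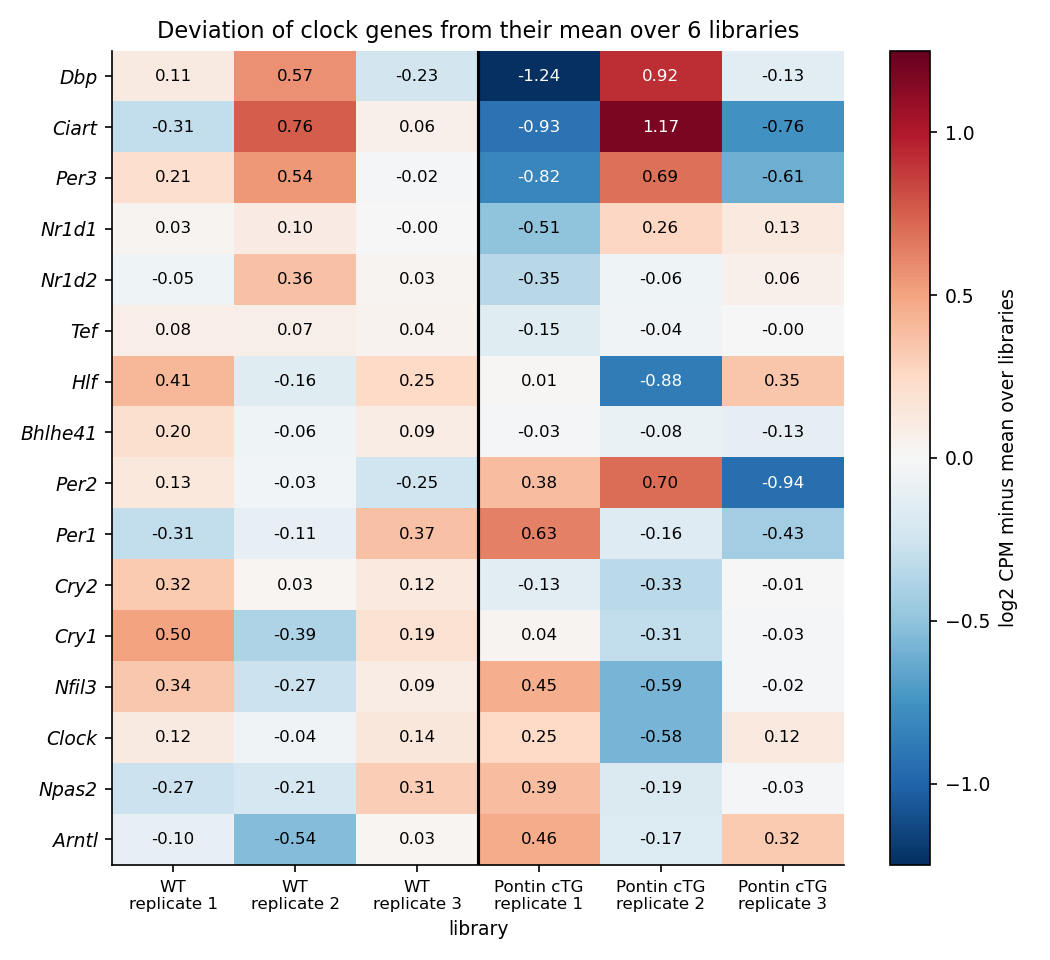
Deviation of 16 clock genes from their mean over the 6 libraries in log2 CPM, red above and blue below the mean, with WT libraries to the left of the black line. *Dbp*, *Ciart* and *Per3* were above their means in WT replicate 2 and Pontin cTG replicate 2, where *Arntl*, *Npas2*, *Clock*, *Nfil3* and *Cry1* were below theirs, and the reverse held in Pontin cTG replicate 1.

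To describe a phase difference between libraries, the deviations of 10 genes assigned to the light phase (*Nr1d1*, *Nr1d2*, *Dbp*, *Tef*, *Hlf*, *Ciart*, *Per1*, *Per2*, *Per3* and *Bhlhe41*) and of 5 genes assigned to light onset (*Arntl*, *Npas2*, *Clock*, *Nfil3* and *Cry1*) were averaged in each library. The peaks within each group are not simultaneous: *Per2* and *Bhlhe41* are known to peak later than *Dbp*, around the change to darkness, and *Cry1* earlier than *Arntl*, late in the dark phase. The light-phase mean was 0.05, 0.21 and 0.03 log2 units in WT and −0.30, 0.25 and −0.25 in Pontin cTG hearts. The light-onset mean was 0.12, −0.29 and 0.15 in WT and 0.32, −0.37 and 0.07 in Pontin cTG hearts. WT replicate 2 and Pontin cTG replicate 2 had the most light-phase and least light-onset expression, and Pontin cTG replicate 1 the opposite. The first principal component over all genes set the same 2 libraries, at 16.2 and 50.9, above the others. These means thus follow a split that is not particular to clock genes, and its part in them was not tested.

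The difference of these means was −0.06, 0.50 and −0.12 in WT and −0.62, 0.62 and −0.32 in Pontin cTG hearts. The Pontin cTG hearts held both extremes, so the groups overlapped, and the difference did not order the libraries by genotype. With *Per2*, *Bhlhe41* and *Cry1* left out, a choice made after the values were seen, it was 0.0023, 0.53 and −0.077 in WT and −0.80, 0.62 and −0.27 in Pontin cTG hearts. All 5 light-onset genes were above their means in WT replicate 3 and Pontin cTG replicate 1, and all 5 below in WT replicate 2 and Pontin cTG replicate 2. The light-phase genes were less uniform: 5 of 10 were above their means in Pontin cTG replicate 2, 6 of 10 in WT replicate 2 and 3 of 10 in Pontin cTG replicate 1. Without Pontin cTG replicate 2, a choice made after its values were seen, the differences were 0.06, 0.62 and 0.01 in WT and −0.49 and −0.20 in Pontin cTG replicates 1 and 3, and both remaining Pontin cTG hearts were below all WT hearts. The order of the groups therefore depended on that 1 library.

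**Figure D4:**
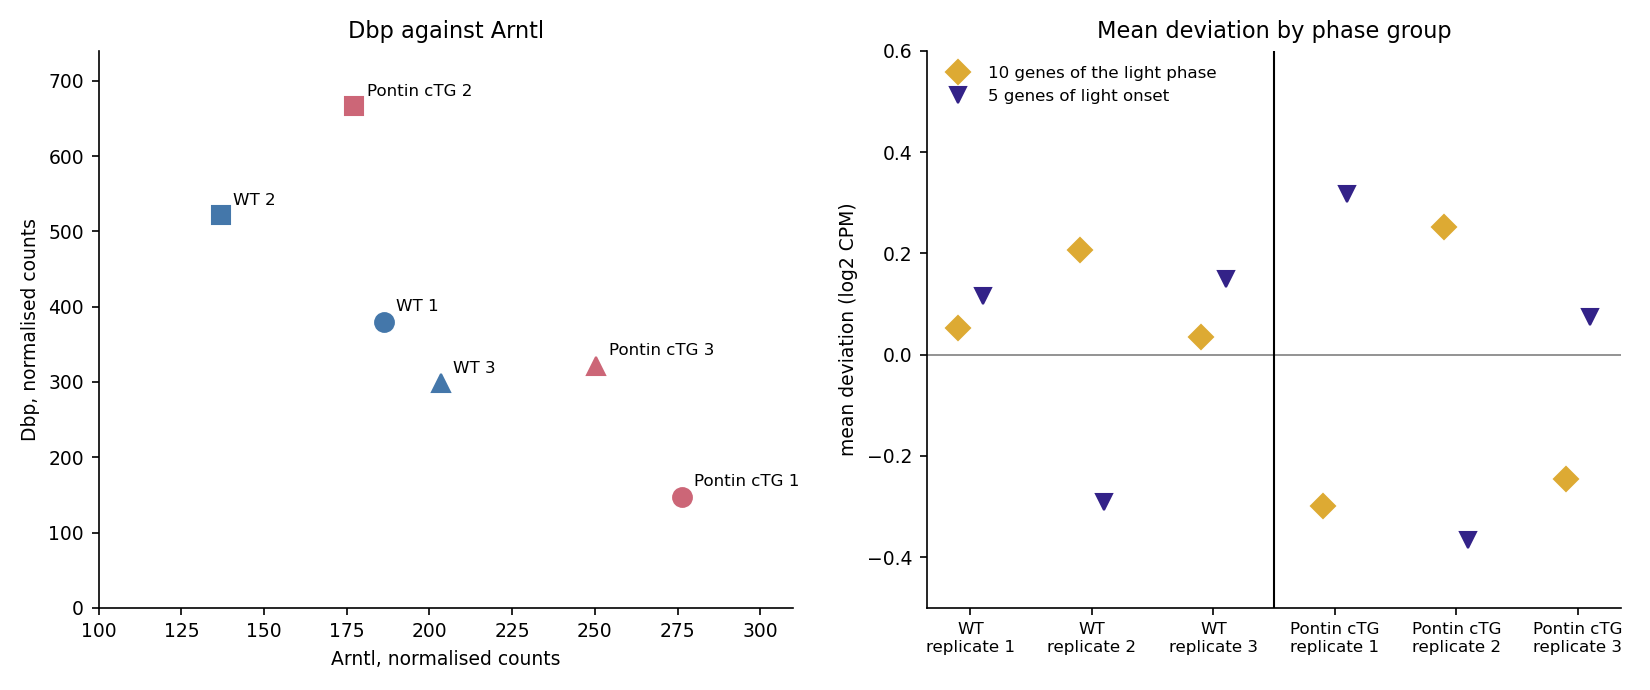
On the left, normalised counts of *Dbp* against *Arntl* in the 6 libraries (WT blue, Pontin cTG red); on the right, the mean deviation in log2 CPM of the 10 light-phase genes (diamonds) and the 5 light-onset genes (triangles). Pontin cTG replicate 1 had 147 counts of *Dbp* with 276 of *Arntl*, and WT replicate 2 had 522 with 137.

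Pairs of clock genes were compared on their deviations from the group means over the 6 libraries, as a description with no test, since these points share libraries, depth and gene length effects. All 10 pairs within the light-onset group had a positive correlation (median r = 0.75). Of the 50 pairs between the groups 35 were negative (median r = −0.51), but within the light-phase group no more than 22 of 45 were positive. *Dbp* went with *Per3* (r = 0.92), *Nr1d1* (0.92), *Ciart* (0.86), *Tef* (0.72) and *Nr1d2* (0.66), and opposite to *Nfil3* (−0.92), *Clock* (−0.92), *Arntl* (−0.89) and *Npas2* (−0.82). *Per1* (−0.69), *Hlf* (−0.70), *Cry1* (−0.56), *Cry2* (−0.50) and *Bhlhe41* (−0.40) also went against *Dbp*, and *Per2* had r = 0.19.

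Without Pontin cTG replicate 2 the correlation with *Dbp* was 0.90 for *Nr1d1*, *Nr1d2* and *Tef* and 0.83 for *Per3*, and −0.91 for *Clock*, −0.82 for *Npas2* and −0.74 for *Arntl*, over 5 libraries. For *Hlf* it was 0.02, for *Ciart* 0.53, for *Cry2* 0.11 and for *Cry1* −0.46, and *Per1* (−0.88), *Nfil3* (−0.80), *Per2* (−0.70) and *Bhlhe41* (−0.63) went against *Dbp*. Such values were common: of 8719 genes compared over all 6 libraries, 10.5% had r over 0.8 with *Dbp* and 17.5% had r under −0.8, and without Pontin cTG replicate 2 the shares were 11.8% and 13.5%. Over all 6 libraries, the 5 genes outside the clock lists most like *Dbp* were *Mydgf*, *Anp32b*, *Rps25*, *Ttc4* and *Rpl14*, with r between 0.998 and 1.00, and those most opposite were *Pwp2*, *Sema5a*, *Herpud1*, *Plxnb2* and *Fam120a*, with r between −0.999 and −0.997. *Mydgf* ranged from 251 to 325 normalised counts among the Pontin cTG hearts, a 1.29-fold range where that of *Dbp* was 4.52-fold. Genes with r over 0.8 had a median length of 4090 bases against 6379 bases for those under −0.8, and across genes likeness to *Dbp* was lower in longer genes, at a Spearman rho of −0.19; the part of length in the clock correlations was not tested.

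Beyond the 10 members, 45 genes of the clock, its outputs and its inputs were listed by role. 44 were tested (*Fbxl21*, a ubiquitin ligase subunit, had too few counts), of which 26 were higher and 18 lower in Pontin cTG hearts (median log2 fold change 0.05). 1 of the 44 had an unadjusted p under 0.05, *Fos*, higher in Pontin cTG hearts as were 1.02% of all genes at that threshold, and 0 had an adjusted p under 0.05 in edgeR. 1 had groups that did not overlap, lower in Pontin cTG hearts as in 3.63% of all genes: *Coq10b*, a mitochondrial coenzyme Q-binding protein listed among the rhythmic outputs, with 507, 617 and 484 normalised counts in WT and 464, 449 and 450 in Pontin cTG hearts (log2 fold change −0.24, SE 0.13). The log2 fold change of *Coq10b* was −0.13 (SE 0.13) with WT replicate 2 left out.

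By role, *Clock* had a lower mean in Pontin cTG hearts, and the other 3 positive-limb genes had higher means: *Arntl* and *Npas2*, given above, and *Arntl2*, which had 23.1, 39.3 and 14.5 normalised counts in WT and 19.5, 57.4 and 16.5 in Pontin cTG hearts. The higher mean of *Arntl2* came from Pontin cTG replicate 2: its log2 fold change was 0.28 (SE 0.55) with all libraries and −0.51 (SE 0.45) without that library. *Npas2* had 0.11 (SE 0.27) with all libraries and −0.066 with Pontin cTG replicate 1 left out. Of the other repressors, *Bhlhe40* had 707, 937 and 738 in WT and 852, 770 and 780 in Pontin cTG hearts. *Bhlhe41* had 357, 298 and 330 in WT and 305, 293 and 284 in Pontin cTG hearts. Their groups overlapped, with log2 fold changes of 0.01 (SE 0.14) and −0.16 (SE 0.13).

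Among the ROR receptors, which activate what the REV-ERB proteins repress, *Rora* had 476, 398 and 484 normalised counts in WT and 414, 292 and 438 in Pontin cTG hearts. It was lowest in Pontin cTG replicate 2, and *Rorb* had no more than 17.6 normalised counts in any library. Their log2 fold changes were −0.25 (SE 0.17) for *Rora* and 0.23 (SE 0.63) for *Rorb*. With a library left out, *Rora* ran from −0.36 to −0.086, nearest to 0 without Pontin cTG replicate 2, and *Rorb* ran from −0.10 (Pontin cTG replicate 3 left out) up to 0.92 (WT replicate 1 left out).

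Of the 10 genes tested for turnover and modification of clock proteins, 4 were higher and 6 lower, and *Gsk3b*, a kinase, had the smallest p (log2 fold change −0.24, SE 0.22, unadjusted p = 0.298 in edgeR). When Pontin cTG replicate 2 was left out, 7 were higher and 3 lower, and *Gsk3b* stood at −0.015 (SE 0.12). Of the 11 rhythmic outputs in heart, 5 were higher and 6 lower, a tally that ran from 2 higher and 9 lower without Pontin cTG replicate 3 to 8 higher and 3 lower without Pontin cTG replicate 2 or WT replicate 3, and *Coq10b* had the smallest p in edgeR (0.105, unadjusted). *Nampt* and *Klf15* had log2 fold changes of 0.09 and 0.18 with all libraries of −0.19 and −0.041 with Pontin cTG replicate 3 left out, and of 0.37 and 0.42 without Pontin cTG replicate 2 (unadjusted p = 0.0151 and 0.0230, adjusted p = 0.889 for both in edgeR, in the fit in which 4.91% of all genes had an unadjusted p under 0.05). Of the 12 genes of acute input, which respond to hormones, activity or temperature, 11 were higher and 1 was lower, with a median log2 fold change of 0.21. Without Pontin cTG replicate 1, 5 were higher and 7 lower, with a median of −0.14, so that this tally rested on that heart. *Fos*, an immediate early gene, had 16.5, 39.3 and 29.1 normalised counts in WT and 69.3, 36.8 and 60.6 in Pontin cTG hearts, which overlapped. Its log2 fold change was 0.97 (SE 0.38), and edgeR gave it an unadjusted p of 0.0305 (adjusted p = 0.999). The unadjusted p lay between 0.0674 and 0.104 in edgeR when WT replicate 1, WT replicate 3, Pontin cTG replicate 1 or Pontin cTG replicate 3 was left out, and was 0.0165 when WT replicate 2 was left out and 0.00447 when Pontin cTG replicate 2 was.

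*Per1*, which has an E-box in its promoter as shown above, did not run with *Dbp*, and was therefore compared with the genes of acute input, a comparison chosen after its values were seen. *Fkbp5*, which glucocorticoids induce, had 203, 220 and 296 normalised counts in WT and 417, 208 and 169 in Pontin cTG hearts. *Per1* and *Fkbp5* ordered the 6 libraries identically, as did 0.0504% of genes tested with *Per1*, and their deviations from the group means had r = 0.99, which 0.036% of genes exceeded. *Sik1* (r = 0.90), *Nr4a1* (0.89), *Tsc22d3* (0.88), *Hspa1b* (0.76), *Hspa1a* (0.75), *Sgk1* (0.73) and *Zbtb16* (0.71) also went with *Per1* over these libraries, whereas *Fos* (0.43), *Crem* (−0.49), *Rbm3* (−0.41) and *Cirbp* (−0.79), the last of which is induced by cold, did not.

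Pontin cTG replicate 1 had the highest value of these genes that went with *Per1*. *Sik1*, a kinase induced by cyclic AMP, had 312, 301 and 445 normalised counts in WT and 832, 249 and 295 in Pontin cTG hearts. *Tsc22d3*, another glucocorticoid target, had 772, 956 and 1131 in WT and 1510, 774 and 941 in Pontin cTG hearts. *Hspa1b*, a heat shock gene that shares near-identical sequence with *Hspa1a* so that reads may be divided between them, had 50.7, 49.4 and 41.4 in WT and 243, 25.7 and 31.2 in Pontin cTG hearts. A single heart thus set the upper end of each, and the same heart had the highest *Per1* and the lowest *Dbp*, *Nr1d1*, *Nr1d2*, *Per3* and *Tef*.

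**Figure D5:**
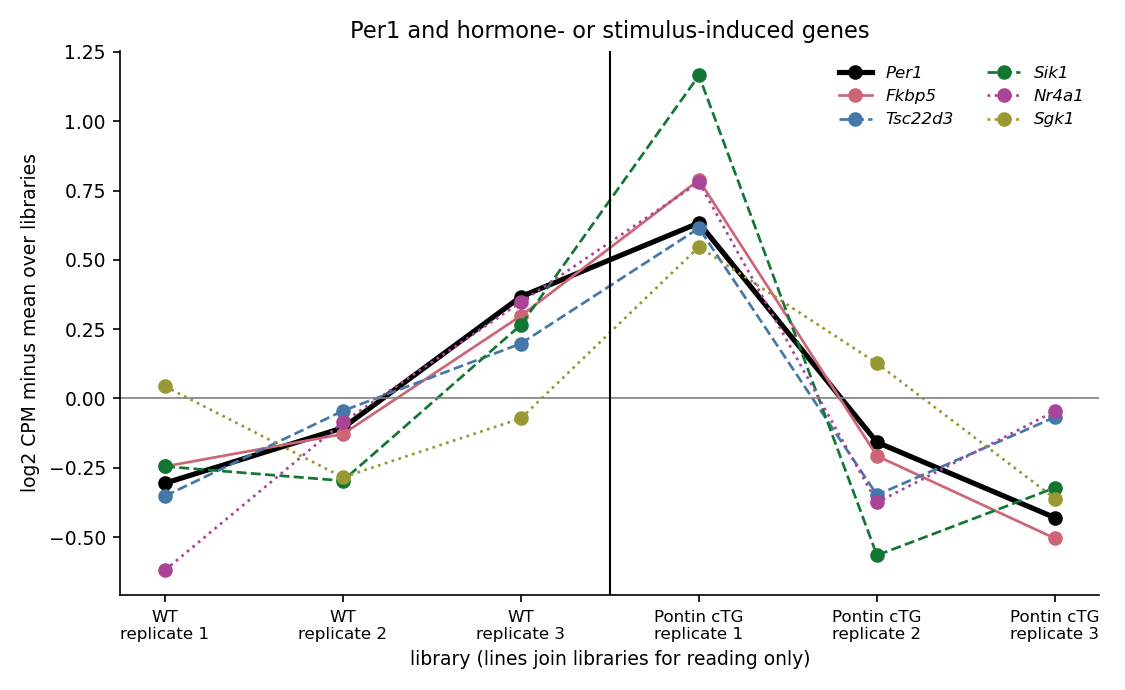
Deviation from the mean over 6 libraries in log2 CPM of *Per1* (thick black line) and 5 genes of acute input, with WT libraries to the left of the vertical line; lines join libraries for reading only. All 6 genes were highest in Pontin cTG replicate 1, where *Per1* was 0.63 and *Sik1* 1.17 above its mean.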

How the data were processed

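Per the labels, reads of the whole-heart libraries were processed with fastp, HISAT2 and featureCounts on GRCm39, and the deposited values are whole-number counts per gene without normalisation. The methods of the study name Trimmomatic, STAR, mm10 and Gencode M25 for its RNA-seq; the positions in the table are not those of GRCm38 and were given as GRCm39. All 6 sample columns were matched by name. The members and gene lists were chosen with earlier results of these data known.

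In R 4.3.3, edgeR 4.0.16 was used to remove low genes (filterByExpr, minimum count 10), to scale libraries by TMM and to test genotype by quasi-likelihood, and p-values were adjusted by Benjamini-Hochberg over all 13888 genes that remained. For normalised counts, each count was divided by its effective library size (TMM) and rescaled to the geometric mean size; log2 CPM used a prior count of 2. Single genes were also compared by two-sided exact permutation tests over libraries. DESeq2 1.42.0, limma-voom with sample quality weights (limma 3.58.1), other filters and scalings, a replicate block and each library left out were alternatives. The test was checked on simulated data with large changes, the same dispersion for every gene and no outlying library. That check does not show how the test performs on smaller changes or on libraries like these. Named beside the members were *Ruvbl1*, the core clock genes, the genes with the smallest p in the other roles, the 5 genes most like and most opposite to *Dbp* with a mean log2 CPM of at least 3, and cell type markers; *Sik1*, *Tsc22d3*, *Hspa1b*, the other genes set beside *Per1*, *Nampt* and *Klf15* were chosen after their values were seen. Of the genes this rule covers, 1 is not reported here.

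The common biological coefficient of variation was 0.197. All pairs of libraries differed beyond sampling noise (chi-square per gene of at least 5.54). The sources do not say whether the hearts were handled in batches.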

Additional observations from a re-analysis of the deposited data

How the results depend on the processing

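No clock gene passed an adjusted p of 0.05 under any of the 14 alternatives run, where the lowest adjusted p of the 10 was 0.855. Of 140 alternative fold changes of these genes, 130 kept their direction and 10 were reversed. Over all genes, 1 was called by DESeq2 and 3 by limma-voom with sample quality weights. 3 were called with no filter on low counts and 0 to 3 with a library left out, against 0 in the main fit. DESeq2 gave 217 of 25633 genes at an unadjusted p under 0.05. In the weighted limma-voom fit, unadjusted p under 0.05 was reached by 2 clock genes (*Per3* and *Cry2*) and by 3 of the wider list. Over all genes, 5.72% reached it there. With a library left out, 0 to 2 clock genes reached it. *Per3* did so without Pontin cTG replicate 2, as did 4.91% of all genes. *Per2* and *Cry2* did so without Pontin cTG replicate 3, as did 2.87% of all genes. Of the wider list, 2 reached it with no filter (1.86% of all genes). With a library left out 0 to 5 of that list did, the most without Pontin cTG replicate 2. The median log2 fold change of the clock genes was −0.25 in the weighted limma-voom fit and −0.17 to −0.091 with a library left out. The weighted limma-voom fit gave 0.047 for *Clock*, 0.32 for *Per1*, −0.055 for *Per2*, −0.83 for *Per3*, −0.79 for *Dbp* and −0.28 for *Nr1d1*. In that fit the test and the weight of each library changed together, and their parts were not tested apart. With a library left out, *Clock* ran from −0.25 to 0.11, *Per1* from −0.29 to 0.30, *Per2* from −0.10 to 0.60, *Per3* from −0.99 to −0.073, *Cry1* from −0.45 to −0.016, *Cry2* from −0.39 to −0.22, *Nr1d1* from −0.20 to 0.16, *Nr1d2* from −0.32 to −0.097, *Tef* from −0.16 to −0.080 and *Dbp* from −0.76 to 0.32; the cause was not tested.

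Same-numbered libraries deviated together at r = 0.077, 0.43 and 0.19, and no label names a shared litter or batch, so the numbers were not read as pairs. With a replicate block, 1 clock gene (*Cry2*) and 2 genes of the wider list (*Arntl* and *Fos*) had an unadjusted p under 0.05, as did 3.59% of all genes, and the median was −0.17. By edgeR's dispersion in place of the SD, 4.10% of genes varied more than *Dbp*, 9.90% more than *Per3*, 10.4% more than *Per2*, 23.6% more than *Per1* and 44.8% more than *Clock*. Motif counts of the 13 member promoters were the same in the whole promoter window, where 7.15% of all promoters held an E-box and 1.06% a D-box. With 3 hearts per group, a standard error of 0.46 for *Dbp* leaves log2 fold changes from −0.99 to 0.83 within its interval. That interval assumes a normal distribution and, with so few libraries, is narrower than the edgeR test implies.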
